A study of Mus musculus with 6 samples.

Results

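Collagens are the main structural proteins of the extracellular matrix, each built from 3 polypeptide chains wound into a triple helix. The collagen genes were taken here as every symbol of the count table made of Col, a type number, the letter a and a chain number, which gave 44 of the 44792 symbols. They were divided into 11 fibrillar chains, 8 basement membrane chains (type IV, with the multiplexins XV and XVIII) and 25 others. Total RNA was sequenced from heart tissue of untreated C57BL/6 mice at 3 months of age, as 6 libraries. Of these, 3 were labelled wild type and 3 were labelled with the R193H mutation of cTnI (cardiac troponin I), which inhibits the thin filament of heart muscle at rest. Sex, whether 1 or both alleles were mutated and how the mutation was introduced were not stated in the labels. The libraries of each genotype were described as biological repeats.

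Fibrillar collagens I and III form the fibres that hold heart muscle bundles together and give the ventricle its tensile strength and stiffness, and type V chains help to start these fibrils. Type IV chains form the sheet-like network of the basement membrane around each cardiomyocyte and capillary, and type VI makes beaded microfibrils between that membrane and the fibres. In the adult heart fibroblasts make most of the fibrillar collagen, and endothelial and mural cells contribute much of the type IV collagen. More fibrillar collagen is a mark of fibrosis. In whole-tissue RNA, a change in the number of cells of a type and a change in RNA per cell cannot be told apart.

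The hearts held 14736067 to 21852210 counts in all, of which 19515 to 56154 were collagen counts. R193H replicate 2 stood apart from the other hearts. It had the smallest share of mitochondrially encoded counts (30.9%, with 35.2% to 36.8% in the others) and the most collagen counts (56154, with the next highest at 34423). Where leaving it out turned or clearly moved a fold change named here, both values are given. Tnni3, the gene of cTnI, measured 3202, 3466 and 3282 CPM (the unit of all levels below, counts per 1000000 of the scaled library total) in wild type replicates 1, 2 and 3, and 3900, 3641 and 3703 CPM in R193H replicates 1, 2 and 3. Gene counts do not show the changed base, so the genotype itself was not checked. The cardiomyocyte genes Myh6, Ttn, Ryr2, Actn2 and Tnni3 were abundant in every heart, as the tissue label says. They summed to 19590 to 23134 CPM in wild type and 18071 to 18715 CPM in R193H hearts, and 0 of the 5 passed the test. R193H hearts all lay below wild type hearts for 4 of them, Myh6, Ttn, Ryr2 and Actn2 (5.8% of all genes tested). For Tnni3 the R193H hearts all lay above (6.02% of all genes tested).

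The stretches of DNA just before 3 collagen start sites are shown because they belong to genes the results turn on. Col3a1 and Col5a1, both fibrillar and both high in R193H replicate 2, have upstream windows of very different base composition, and Col4a4 and Col4a3 are transcribed away from each other across a short gap. Sequences are from RefSeq on GRCm38.p6, run 5′ to 3′ on the strand of the first gene named and end just before its start site. Capitals mark the letters CCAAT, or else the TATA box letters TATAAA, or else the GC box letters GGGCGG, on either strand. None of these matches overlap in the sequences shown.
Col3a1, chr1:45311288-45311537, plus strand: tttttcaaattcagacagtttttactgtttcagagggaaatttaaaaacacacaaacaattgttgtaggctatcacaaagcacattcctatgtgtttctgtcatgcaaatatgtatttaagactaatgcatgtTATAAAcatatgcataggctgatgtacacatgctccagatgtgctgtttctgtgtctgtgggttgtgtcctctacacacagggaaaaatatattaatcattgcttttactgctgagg
Col5a1, chr2:27886175-27886424, plus strand: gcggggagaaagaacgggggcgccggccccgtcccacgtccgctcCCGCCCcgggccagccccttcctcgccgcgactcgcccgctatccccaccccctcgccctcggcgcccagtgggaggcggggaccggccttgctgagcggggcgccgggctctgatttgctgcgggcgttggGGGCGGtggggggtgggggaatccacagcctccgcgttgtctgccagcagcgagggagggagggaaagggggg
Gap from Col4a4 to Col4a3, chr1:82586850-82586920, minus strand: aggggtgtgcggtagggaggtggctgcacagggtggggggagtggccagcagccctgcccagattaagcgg
The Col3a1 window is 35.2% G and C and holds 1 TATAAA, and the Col5a1 window is 76.4% G and C and holds GGGCGG on both strands. The 71 bases between Col4a4 and Col4a3 are 69.0% G and C and hold none of these motifs. RefSeq windows were found for 35 of the 44 collagens (38 windows of 250 bases). GGGCGG stood in 57.9% of them and in 32.7% of the 32841 windows of all genes, CCAAT in 34.2% and 33.9%, and TATAAA in 13.2% and 12.4%. These matches describe letters only.

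Set per kilobase of the main coding transcript, so that genes can be compared, the collagen RNA of these hearts was led by Col4a2 and Col3a1, at means of 55.7 and 52.4 CPM per kb over the 6 hearts. Col4a2 encodes a chain of the ubiquitous type IV network, and Col3a1 the single chain of type III. Col6a1 (35.1 CPM per kb), Col6a2 (28.9) and Col1a2 (28.5) followed, then Col4a1 (20.1) and Col1a1 (14.97). Of all collagen counts, the fibrillar share was 38.5% ± 2.12 (SD, n = 3) in wild type hearts and 40.3% ± 4.74 (SD, n = 3) in R193H hearts. Basement membrane chains took 35.4% ± 2.92 and 34.1% ± 4.82, and the other collagens 26.1% ± 0.872 and 25.6% ± 0.0958. By heart, the fibrillar share was 37.4%, 40.9% and 37.1% in wild type and 37.96%, 45.8% and 37.2% in R193H replicates 1, 2 and 3. The basement membrane share was 37.3%, 32.1% and 36.9% against 36.4%, 28.5% and 37.3%. For both classes only R193H replicate 2 lay outside the wild type range.

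A filter on low counts left 31 collagens for testing, of which 18 had a mean of at least 10 CPM, 11 a mean of 1 to 10 CPM and 2 a mean under 1 CPM. The 13 not tested had at most 18 counts in any heart. They were Col2a1 and Col9a1, Col9a2 and Col9a3, which are cartilage chains, and Col10a1 of growth-plate cartilage. Col7a1 of the skin's anchoring fibrils and the transmembrane Col17a1 of epithelia were also among them, as were Col6a4, Col6a5, Col19a1, Col22a1, Col24a1 and Col26a1. Col10a1 had 0 counts in all 6 hearts, which allows up to 0.135 to 0.213 CPM per heart (3 counts, counting error only).

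**Figure D1:**
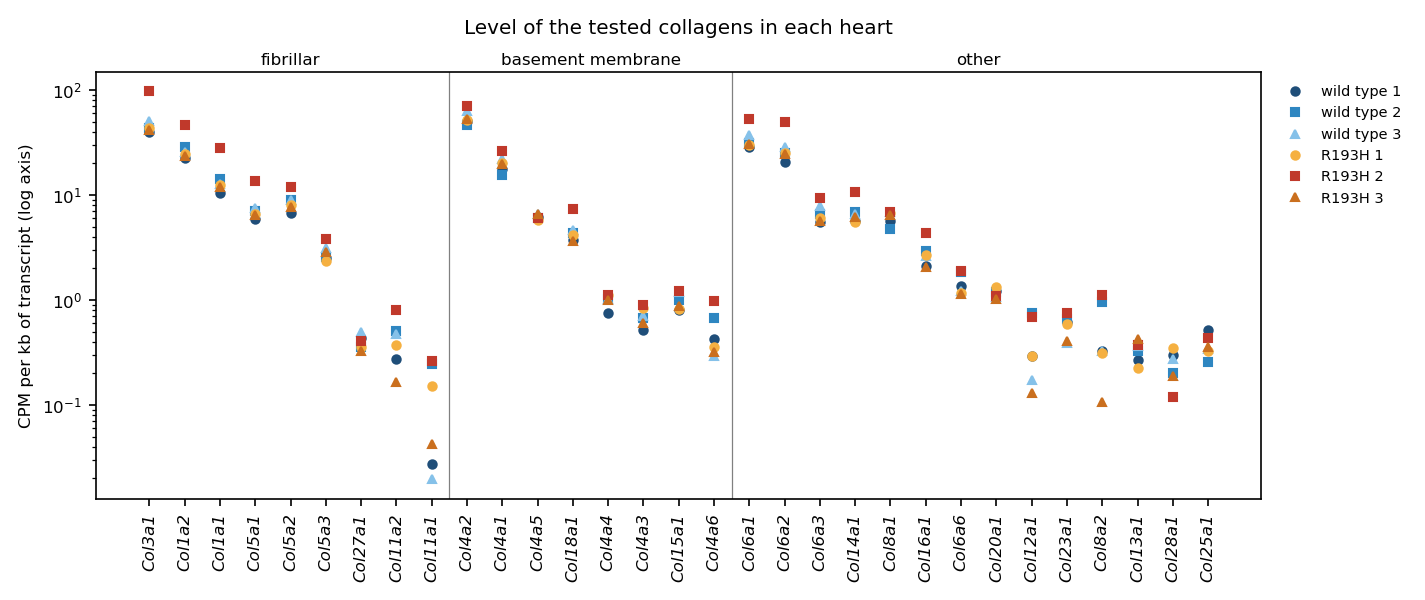
Level of each of the 31 tested collagens in each heart, in CPM per kilobase of transcript on a log axis, grouped by class. Red squares (R193H replicate 2) lie highest for 8 of 9 fibrillar, 6 of 8 basement membrane and 9 of 14 other genes. Col4a5 has almost the same level in all 6 hearts.

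No collagen differed between the genotypes by the test. Of the 31 tested, 0 passed an adjusted p of 0.05 in edgeR's quasi-likelihood test, 0 had an unadjusted p under 0.05 and 0 passed in DESeq2. Over all 14370 genes tested, 0.00696% passed in edgeR and 5.73% had an unadjusted p under 0.05, and 0.275% of 14536 genes passed in DESeq2. In 0 of the 31 did the R193H hearts all lie above or all lie below the wild type hearts, against 11.8% of all genes tested (6.02% above and 5.8% below). The smallest unadjusted p was 0.102, for Col8a1. Mean levels were higher in the mutant group for 23 of the 31 collagens (49.9% of all genes). The collagens' median log2 fold change was 0.14, and that of all genes was -0.00036. Without R193H replicate 2, 9 of 32 tested had a higher mean (49.7% of all genes) and the median was -0.079. In that fit 0 collagens passed, against 0.041% of all genes.

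Fibrillar chains showed the widest gap between R193H replicate 2 and the rest. Col3a1 (chromosome 1, 45311538 to 45349706) measured 220, 241 and 279 CPM in wild type replicates 1, 2 and 3, and 239.9, 538 and 229 CPM in R193H replicates 1, 2 and 3. R193H replicate 2 was 2.18 times the wild type mean, and the other 2 mutant hearts lay inside the wild type range. The fitted log2 fold change of 0.44 (SE 0.39, edgeR adjusted p = 0.908) became -0.071 (SE 0.10) when R193H replicate 2 was left out.

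Type I collagen, the main fibre protein of the heart's scar and skeleton, is made of chains from Col1a1 and Col1a2. Col1a1 (chromosome 11, 94936224 to 94953042) measured 62.2, 84.4 and 75.9 CPM in wild type and 73.97, 166 and 70.6 CPM in R193H hearts, in replicate order. Again 1 mutant heart was high and the other 2 lay among the wild type values. The log2 fold change was 0.48 (SE 0.40, edgeR adjusted p = 0.906), and -0.036 (SE 0.12) without that heart. Col1a2 (chromosome 6, 4504814 to 4541544) measured 120, 154 and 136 CPM against 132, 249 and 126 CPM, with the same order of hearts (log2 fold change 0.30, SE 0.29, edgeR adjusted p = 0.91, and -0.086 without R193H replicate 2).

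Type V chains, which are buried in type I fibrils and regulate their width, followed in part. Col5a1 measured 49.9, 59.5 and 63.2 CPM in wild type and 55.9, 113 and 53.7 CPM in R193H hearts, so that R193H replicate 2 was 1.96 times the wild type mean. Col5a2, which lies beside Col3a1 on chromosome 1 (45374321 to 45503282), measured 45.1, 59.4 and 59.9 against 52.7, 78.1 and 50.8 CPM. That heart was again the highest, but only 1.43 times the wild type mean. Col5a3, the least abundant of the 3, measured 15.3, 15.8 and 19.1 against 14.4, 23.1 and 17.6 CPM. The log2 fold changes were 0.37 (SE 0.33), 0.14 (SE 0.19) and 0.13 (SE 0.17), and each turned below 0 without R193H replicate 2 (-0.068, -0.082 and -0.069).

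The remaining fibrillar genes were scarce. Col27a1, of a fibrillar type best known from cartilage, measured 3.33, 2.73 and 3.76 CPM in wild type and 2.74, 3.07 and 2.47 CPM in R193H hearts. It was the 1 tested fibrillar chain with a lower mean in mutant hearts (log2 fold change -0.25, SE 0.21, edgeR adjusted p = 0.902), and R193H replicate 2 lay within the wild type range. Its log2 fold change was -0.33 (SE 0.24) without that heart. For the type XI chains Col11a2 and Col11a1, the log2 fold changes were 0.080 (SE 0.53) and 0.65 (SE 1.02). Without R193H replicate 2 they were -0.64 (SE 0.40) and 0.018 (SE 1.16). Among the 9 tested fibrillar genes, 8 had the higher mean in the mutant group (median log2 fold change 0.30), and 1 of 9 did without R193H replicate 2 (median -0.071).

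**Figure D2:**
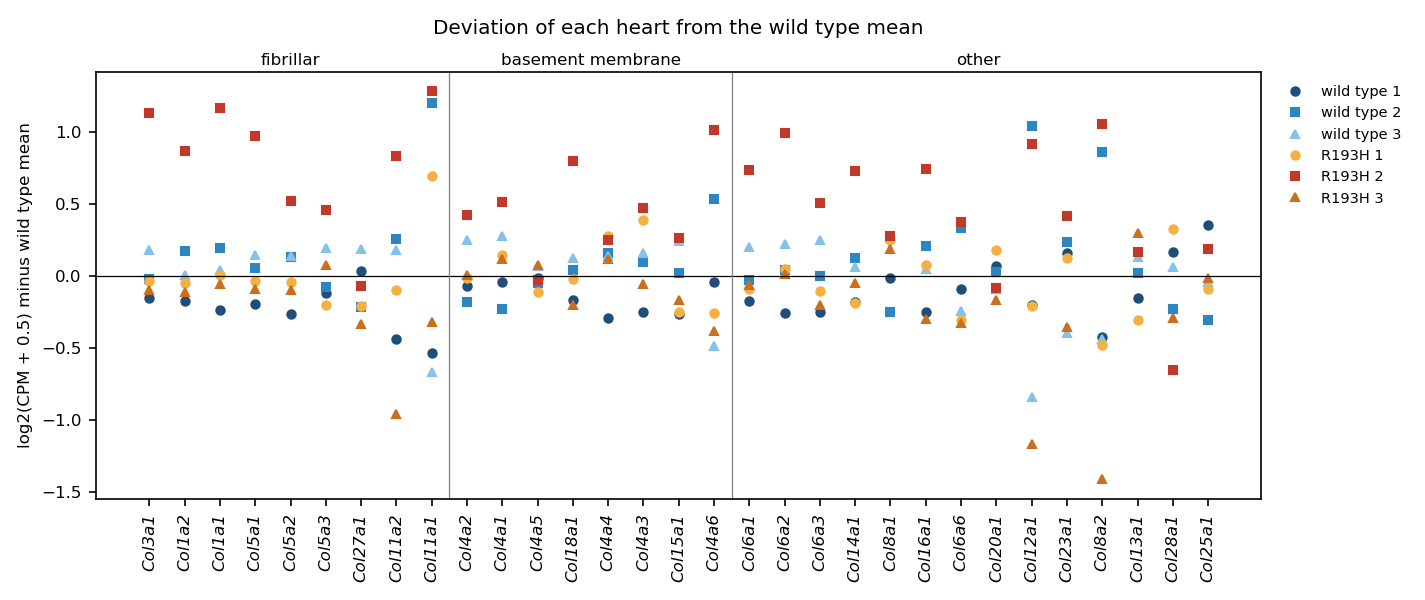
Deviation of each heart from the wild type mean, as log2(CPM + 0.5), for the 31 tested collagens. R193H replicate 2 (red squares) has a median deviation of 0.87 over the fibrillar genes, 0.45 over basement membrane genes and 0.46 over the others, while R193H replicates 1 and 3 lie close to 0 for most genes.

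Basement membrane chains were more even. Col4a2 (chromosome 8, 11312805 to 11449287) measured 323, 299 and 402 CPM in wild type replicates 1, 2 and 3, and 336, 455 and 339.9 CPM in R193H replicates 1, 2 and 3. Its partner chain Col4a1 (chromosome 8, 11198423 to 11312826), with which it builds the common type IV trimer, measured 116, 102 and 145 against 133, 172 and 129.97 CPM. For both, R193H replicate 2 was highest and wild type replicate 3 second, so the groups overlapped. The log2 fold changes were 0.14 (SE 0.15) and 0.25 (SE 0.15), with edgeR adjusted p of 0.914 and 0.898. Without R193H replicate 2 they were -0.014 and 0.12, and without wild type replicate 3 Col4a1 was at 0.40.

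The type IV chains of the other network, best known from the kidney glomerulus, were present at lower levels. Col4a3 measured 4.40, 5.76 and 6.01 CPM in wild type and 7.15, 7.59 and 5.12 CPM in R193H hearts, and Col4a4 measured 7.52, 10.4 and 10.3 against 11.4, 11.2 and 10.2 CPM. Here R193H replicates 1 and 2 were both high, and wild type replicate 1 was lowest. The log2 fold changes were 0.29 (SE 0.20) and 0.21 (SE 0.15), and 0.18 and 0.19 without R193H replicate 2. Without wild type replicate 1 they were 0.17 and 0.073. Col4a3 shares 563 bases of exon with a gene on the opposite strand, so its counts are uncertain if reads were counted without strand.

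Col4a5, an X-linked chain that joins several type IV trimers, was the steadiest collagen. It measured 40.1, 39.1 and 42.6 CPM in wild type and 37.5, 39.8 and 42.7 CPM in R193H hearts, a coefficient of variation of 5.05% over the 6 hearts. R193H replicate 2 was at 0.980 of the wild type mean, and the log2 fold change was -0.021 (SE 0.084). Its head-to-head neighbour Col4a6 measured 2.84, 4.49 and 1.95 against 2.38, 6.45 and 2.14 CPM, with a coefficient of variation of 52.2%. These 2 neighbouring genes thus varied very differently between hearts.

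Col18a1, whose C-terminal fragment is endostatin, measured 18.02, 20.9 and 22.2 CPM in wild type and 20.01, 35.6 and 17.6 CPM in R193H hearts. Like the fibrillar genes, it was high in 1 mutant heart, at 1.75 times the wild type mean (log2 fold change 0.26, SE 0.28, and -0.12 without that heart). Col15a1, the related multiplexin of muscle and vessels, had a log2 fold change of -0.059 (SE 0.21), and of -0.25 without R193H replicate 2. Among the 8 basement membrane genes, 6 had the higher mean in the mutant group (median 0.23), and 3 of 8 without replicate 2 (median -0.015).

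Among the other collagens, type VI was the most abundant. Col6a1 (chromosome 10, 76708792 to 76726168) measured 117, 129 and 151 CPM in wild type and 123, 219 and 126 CPM in R193H hearts. Col6a2, which lies beside it (76595762 to 76623630), measured 80.8, 99.6 and 113 against 100.05, 193.3 and 97.7 CPM. Col6a3, the longest of the 3 chains of the usual type VI molecule, measured 49.5, 58.8 and 70.2 against 54.8, 83.99 and 51.2 CPM. R193H replicate 2 was highest for each, at 1.65, 1.98 and 1.41 times the wild type mean. The log2 fold changes were 0.24 (SE 0.25), 0.41 (SE 0.32) and 0.087 (SE 0.22), and -0.087, 0.016 and -0.17 without that heart.

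Fibril-associated collagens sit on the surface of fibrils and link them to other matrix. Col14a1 measured 31.8, 39.5 and 37.7 CPM in wild type and 31.7, 60.2 and 34.9 CPM in R193H hearts, and Col16a1 measured 10.998, 15.3 and 13.7 against 13.9, 22.5 and 10.6 CPM. R193H replicate 2 was again the high heart, and the other mutant hearts lay within or just below the wild type range. Their log2 fold changes were 0.22 (SE 0.26) and 0.23 (SE 0.28), and each turned below 0 without R193H replicate 2 (-0.12 for each).

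Col8a1, a short-chain collagen made by vascular and fibroblast cells, had the smallest p of all collagens but did not pass. It measured 28.6, 24.2 and 34.8 CPM in wild type and 34.4, 35.0 and 32.9 CPM in R193H hearts. The 3 mutant hearts were close together, in the upper part of the wild type range or just above it, and wild type replicate 3 lay among them. The log2 fold change was 0.22 (SE 0.12, edgeR adjusted p = 0.89), and 0.20 (SE 0.14) without R193H replicate 2. It was 0.10 without wild type replicate 2 and 0.37 without wild type replicate 3. Among the 14 tested genes of this class, 9 had the higher mean in the mutant group (median 0.088), and 5 of 15 without that heart (median -0.10).

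**Figure D3:**
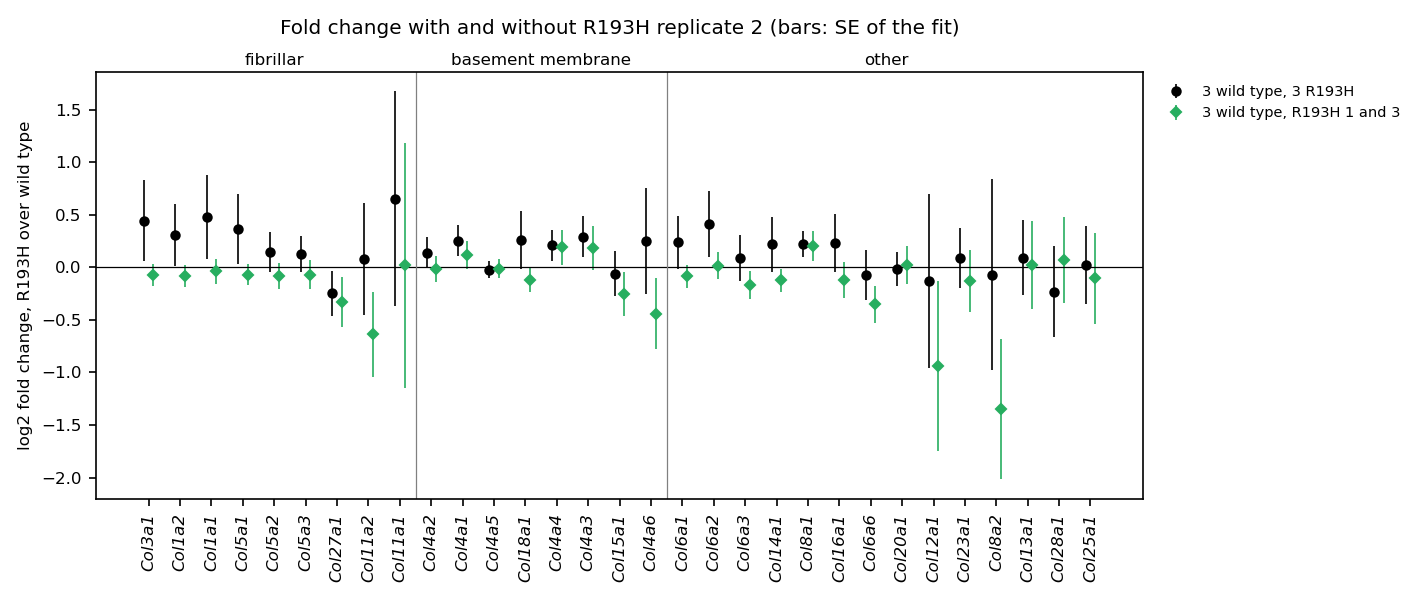
Log2 fold change of R193H over wild type for the 31 tested collagens, with bars of 1 SE from the edgeR fit. Black circles use all 6 hearts, and green diamonds leave out R193H replicate 2. Without that heart the fibrillar genes Col3a1, Col1a2, Col1a1, Col5a1, Col5a2 and Col5a3 move from 0.13 to 0.48 down to -0.086 to -0.036.

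R193H replicate 2 had the highest level of the 6 hearts for 23 of the 31 tested collagens, where it was the highest for 23.2% of all genes tested. By class these were 8 of 9 fibrillar, 6 of 8 basement membrane and 9 of 14 other genes. It was at least 1.5 times the wild type mean for 14 of 31 collagens (8.51% of all genes), of which 6 were fibrillar, 2 basement membrane and 6 other. Summed over a class, fibrillar collagens measured 518, 622 and 639.6 CPM in wild type and 575, 1176 and 551.5 CPM in R193H hearts. R193H replicate 2 thus stood at 1.98 times the wild type mean, and replicates 1 and 3 at 0.969 and 0.930 times. The sums of the basement membrane and other classes in R193H replicate 2 were 1.34 and 1.64 times the wild type mean.

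A few collagens were also high in 1 wild type heart. In wild type replicate 2 and in R193H replicate 2 alike, Col11a1, Col12a1, Col8a2 and Col4a6 were at least 1.5 times the mean of the other 2 hearts of their group. This held for 4 of 31 collagens, chosen after their values were seen, and for 1.56% of all genes tested. Col12a1, a fibril-associated collagen of dense connective tissue, measured 3.41, 8.73 and 2.004 CPM in wild type and 3.37, 7.96 and 1.49 CPM in R193H hearts. Col8a2 measured 1.42, 4.18 and 1.40 against 1.35, 4.85 and 0.466 CPM. Col11a1 rested on 3, 31 and 3 counts in wild type and 26, 44 and 7 counts in R193H hearts. Without wild type replicate 2 its log2 fold change was 2.68 (SE 0.97, edgeR adjusted p = 0.967), and 0 collagens passed in that fit, against 0.0475% of all genes.

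Markers of valve and cartilage-like tissue (Sox9, Acan, Chad, Matn4 and Cilp) were high in the same pair of hearts. Their summed level was 20.9 to 68.9 CPM in wild type and 24.2 to 75.3 CPM in R193H hearts, with both maxima in replicate 2, and none of the 5 was at 0 in every heart. Of them, 3 were tested and 0 passed. Chad, a cartilage matrix protein, measured 0.851, 24.97 and 1.15 CPM against 6.56, 18.7 and 0.326 CPM. Adipocyte markers (Adipoq, Plin1 and Cfd) were likewise highest in replicate 2 of each group, with sums of 4.21 to 23.5 and 2.65 to 19.6 CPM, 3 tested and 0 passed. The part of these cells in the levels of Col11a1, Col12a1, Col8a2 and Col4a6 was not tested.

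Some other cell markers were also high in R193H replicate 2, in different degrees, and others were not. Its sum of 8 fibroblast markers (Pdgfra, Dcn, Lum, Gsn, Tcf21, Dpt, Pi16 and Mfap5) was 3978 CPM, 1.25 times the wild type mean, and the sums ranged from 2922 to 3690 CPM in wild type and from 2770 to 3978 CPM in R193H hearts. All 8 were tested, 0 passed, and R193H replicate 2 was the highest heart for each. Gsn and Dcn made up 92.2% of the summed level. Of the 8, 5 were at least 1.5 times the wild type mean in that heart, from 1.52 for Pi16 to 1.85 for Tcf21, while Gsn was at 1.25 and Dcn at 1.18 times. Activated fibroblast markers (Postn, Cthrc1, Fap, Ltbp2 and Comp) summed to 67.8 to 110 CPM in wild type and 48.2 to 143 CPM in R193H hearts, with 4 tested and 0 passed. Their members differed in pattern. Postn measured 53.9, 57.7 and 60.1 CPM in wild type and 71.0, 99.5 and 37.8 CPM in R193H hearts. Comp measured 4.40, 36.4 and 3.31 against 10.8, 25.4 and 4.56 CPM. Epicardial markers (Wt1, Upk3b, Msln and Krt19) summed to 12.4 to 22.6 and 11.9 to 53.6 CPM, with 4 tested and 0 passed. Their sum was also highest in R193H replicate 2, but the 4 genes did not move together. Upk3b, Msln and Krt19 were highest in that heart, at 28.9, 11.2 and 4.99 CPM. Wt1 was lowest there, at 8.55 CPM or 0.766 times the wild type mean. Endothelial sums were 1283 to 1737 and 1508 to 1677 CPM (6 markers, 0 passed), and mural sums 881 to 1037 and 892 to 924 CPM (6 markers, 0 passed). In R193H replicate 2 the endothelial sum was 1.14 times the wild type mean and below that of wild type replicate 3. The mural sum of that heart was 0.968 times the wild type mean. Atrial markers (Sln, Myl7, Myl4 and Bmp10) summed to 169, 83.0 and 0.701 CPM in wild type and 12.3, 91.2 and 5.40 CPM in R193H hearts, with 3 tested and 0 passed. They were thus high in wild type replicates 1 and 2 and R193H replicate 2. None of these markers was at 0 in all hearts. The part of these cells in the collagen levels was not tested.

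Divided by the fibroblast marker counts of the same heart, a measure added after the data were seen, fibrillar collagen counts gave 0.177, 0.168 and 0.218 in wild type and 0.207, 0.296 and 0.193 in R193H hearts. R193H replicate 2 was 1.57 times the wild type mean by this ratio, and the other mutant hearts lay inside the wild type range. Over the 6 markers other than Gsn and Dcn, the ratio was 2.35, 2.68 and 2.64 in wild type and 2.49, 3.33 and 2.56 in R193H hearts. R193H replicate 2 then stood at 1.30 times the wild type mean, so the size of the excess depended on those 2 genes. For basement membrane collagens the same heart was at 1.05 times over all 8 fibroblast markers, 0.880 times over those 6, and 1.17 times over 6 endothelial markers.

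**Figure D4:**
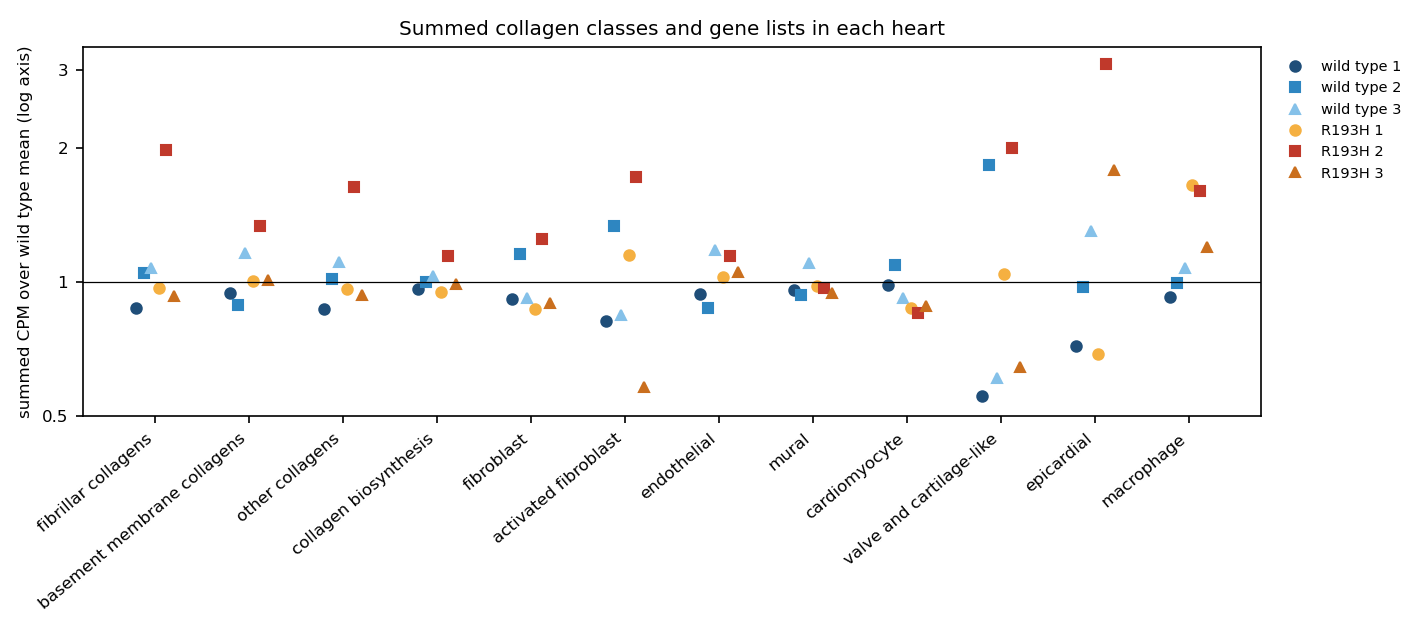
Summed CPM of the 3 collagen classes and of gene lists in each heart, divided by the wild type mean, on a log axis. Fibrillar collagens in R193H replicate 2 stand at 1.98, and the fibroblast marker sum at 1.25. Gsn and Dcn make up 92.2% of that sum, and 5 of its 8 markers are at least 1.5 times the wild type mean in that heart. Valve and cartilage-like markers are high in wild type replicate 2 (1.83) as well as R193H replicate 2 (2.004).

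Ratios between chains within a heart do not depend on how libraries are scaled. There were 6 such ratios chosen for description. Col4a1 to Col4a2 counts stood at 0.360, 0.341 and 0.361 in wild type and 0.395, 0.378 and 0.382 in R193H hearts. The mutant hearts all lay above the wild type hearts, by 0.12 on the log2 scale of the ratio (SDs 0.045 and 0.033, n = 3 each), and the difference was 0.095 to 0.13 with any heart left out. The exact permutation test gave p = 0.1, the smallest that 3 against 3 allows (adjusted over the 6 ratios, 0.2), so this test cannot reach 0.05 here.

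Col6a1 to Col6a2 stood at 1.44, 1.30 and 1.34 in wild type and 1.23, 1.13 and 1.29 in R193H hearts, all lower by a small gap (log2 difference -0.16, exact permutation p = 0.1). Col1a1 to Col1a2 stood at 0.518, 0.549 and 0.557 against 0.562, 0.666 and 0.563. For this ratio too the groups did not overlap (log2 difference 0.14, exact permutation p = 0.1), but the gap between wild type replicate 3 and R193H replicates 1 and 3 was narrow and the difference was 0.055 without R193H replicate 2. For single genes, groups did not overlap in 11.8% of those tested. A ratio of 2 genes is another measure, and no such share was worked out for ratios.

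The other 3 ratios overlapped between the groups. Col5a1 to Col5a2 was near 1 in 5 hearts (1.001 to 1.11) and 1.45 in R193H replicate 2. Col1a1 to Col3a1 was 0.272 to 0.350 in wild type and 0.308, 0.307 and 0.308 in R193H hearts, so R193H replicate 2 did not stand apart in this proportion. Col6a3 to Col6a1 was 0.425 to 0.464 in wild type and 0.384 to 0.445 in R193H hearts. As added measures, Col4a3 to Col4a4 ranged from 0.505 to 0.680 and Col3a1 to Col4a2 from 0.675 to 0.806 in 5 hearts, with 1.18 in R193H replicate 2.

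**Figure D5:**
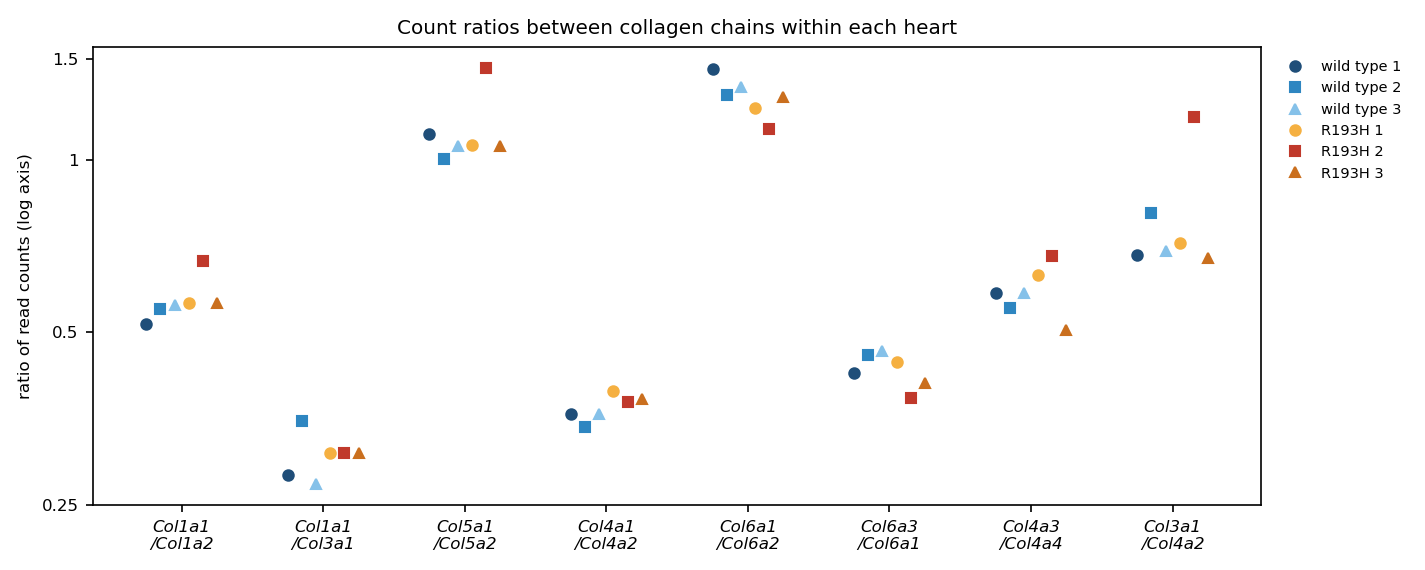
Ratio of read counts between collagen chains within each heart, on a log axis. In R193H replicate 2 the ratios Col5a1 to Col5a2 (1.45) and Col3a1 to Col4a2 (1.18) lie apart from the other 5 hearts, and for Col4a1 to Col4a2 the 3 R193H hearts (0.378 to 0.395) lie above the wild type hearts (0.341 to 0.361).

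Genes that build, bind or accompany collagen were read from the same test. Of 29 tested genes of collagen biosynthesis (of 31 listed), 0 passed in either direction, 20 had a higher mean in R193H hearts and the median log2 fold change was 0.063. Without R193H replicate 2, 11 of 29 had a higher mean and the median was -0.027. Unadjusted p was under 0.05 for 5 of the 29 (5.73% of all genes). Groups did not overlap for 4 (11.8% of all genes). Crtap, a subunit of the prolyl 3-hydroxylation complex, measured 28.95, 23.1 and 25.2 CPM in wild type and 32.4, 39.8 and 32.3 CPM in R193H hearts, higher in all 3 (log2 fold change 0.44, SE 0.12, edgeR adjusted p = 0.722). Ppib, the cyclophilin of the same complex, measured 42.0, 40.4 and 47.9 against 48.7, 56.7 and 48.2 CPM (0.24, SE 0.098, edgeR adjusted p = 0.826). Crtap was at 0.33 and Ppib at 0.16 without R193H replicate 2.

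P4ha1 and P4ha2, catalytic subunits of the prolyl 4-hydroxylases that stabilise the triple helix, lay the other way. P4ha1 measured 61.5, 57.8 and 71.6 CPM in wild type and 50.05, 47.1 and 54.8 CPM in R193H hearts (log2 fold change -0.33, SE 0.10, edgeR adjusted p = 0.722). P4ha2 measured 41.4, 42.6 and 46.8 against 35.5, 33.7 and 41.3 CPM (-0.25, SE 0.098, edgeR adjusted p = 0.816). P4ha1 was at -0.28 and P4ha2 at -0.18 without R193H replicate 2. For both, all 3 mutant hearts lay below all wild type hearts (5.8% of all genes tested), and R193H replicate 2 had the lowest value. For P4ha2 the gap was narrow, with 41.3 CPM in R193H replicate 3 and 41.4 CPM in wild type replicate 1. Serpinh1, the collagen chaperone of the endoplasmic reticulum, had a log2 fold change of -0.0035 (SE 0.10), or -0.065 without R193H replicate 2, and is named after its value was seen.

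Of 9 tested collagen receptors (of 10 listed), 0 passed and 7 had a higher mean (median 0.066), or 5 without R193H replicate 2 (median 0.015). Lair1, an inhibitory collagen receptor of immune cells, measured 2.13, 2.79 and 2.45 CPM in wild type and 5.98, 5.54 and 2.93 CPM in R193H hearts (log2 fold change 0.97, SE 0.28, edgeR adjusted p = 0.722). Lair1 was at 0.86 without R193H replicate 2. Macrophage markers (Cd68, Csf1r, C1qa, C1qb and Adgre1) summed to 139 to 161 CPM in wild type and 180 to 247 CPM in R193H hearts, with 5 of 5 means higher, 4 with R193H hearts all above wild type (6.02% of all genes) and 0 passed, and their part in the level of Lair1 was not tested. Mrc2, an endocytic receptor for collagen, and Ddr2 and Ddr1, tyrosine kinases that bind collagen, stood at 0.26 (SE 0.20), 0.094 (SE 0.080) and -0.096 (SE 0.13). Without R193H replicate 2 they were at -0.021, 0.037 and -0.036. Of 6 partners of collagen in the basement membrane, 0 passed, 4 had a higher mean and the median was 0.013. Without R193H replicate 2, 0 of the 6 had a higher mean and the median was -0.11. By order of p they began with the proteoglycans Hspg2 (-0.092, SE 0.097) and Agrn (-0.080, SE 0.095), then Sparc, a collagen-binding protein (0.14, SE 0.18), and the type IV linker Nid2 (0.085, SE 0.20). Without that heart these 4 were at -0.16, -0.13, -0.069 and -0.0995.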

How the data were processed

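Counts were analysed for 6 hearts, 3 wild type and 3 R193H, grouped by the genotype label. The authors deposited raw whole-number read counts per gene symbol. Alignment used HISAT2 2.0.4 and GRCm38, per the submitters' processing notes. No counting program, strand setting or handling of multiply mapped reads is stated there, so genes with close paralogs or overlapping genes are uncertain. Exons of 10 of the 44 collagens overlap a gene on the opposite strand in GENCODE M21, by at most 563 bases. Exons of 3 overlap a gene on the same strand, by at most 141 bases, which is the overlap of Col3a1.

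In R 4.3.3, edgeR 4.0.16 filtered genes (filterByExpr, 14370 of 44792 kept), scaled libraries by trimmed mean of M values (TMM) and ran the robust quasi-likelihood test without covariates. Benjamini-Hochberg adjustment ran over the whole table of tested genes, and an adjusted p under 0.05 was called. CPM uses TMM-scaled totals. Lengths are of the principal transcript in GENCODE M21, and coordinates are from it (GRCm38). Scripts were tested on simulated data. No 2 hearts matched within sampling noise (chi-square per degree of freedom at least 13.6). The members, lists and tests were chosen with earlier results of these data known. Values per heart are given for members past the threshold or with groups that do not overlap, and in each class for the 6 highest by mean CPM and the 3 lowest by p. For the lists of collagen biosynthesis, collagen receptors and basement membrane partners the 4 lowest by p are named. Genes outside this rule are Col4a6, Col12a1, Col8a2, Col11a1, Col11a2, Col15a1 and Serpinh1, given after their values were seen. The same holds for cell type markers given singly, such as Chad, Postn, Comp and Wt1. Listed genes that the table spells by an older name were matched through RefSeq synonyms. Alternatives were 3 other scalings, no filter, DESeq2 1.42.0, limma-voom (limma 3.58.1), each heart left out and a narrower basement membrane class.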

Additional observations from a re-analysis of the deposited data

How the results depend on the processing

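No collagen, and no gene of the lists for collagen biosynthesis, receptors and basement membrane partners, passed the threshold under any of the 12 alternatives. The count over all genes, 1 in edgeR, was 0 with nuclear genes only, 38 without a filter, 40 in DESeq2 and 3 to 21 with a heart left out. Among the 19 collagens named by rule, 6 kept their sign under every alternative and 11 turned only without R193H replicate 2. With a heart left out, the ranges on the log2 scale were -0.071 to 0.67 for Col3a1, -0.086 to 0.49 for Col1a2, -0.036 to 0.70 for Col1a1, -0.068 to 0.56 for Col5a1, -0.082 to 0.26 for Col5a2 and -0.069 to 0.28 for Col5a3. They were -0.014 to 0.27 for Col4a2, -0.063 to 0.022 for Col4a5, -0.12 to 0.46 for Col18a1, -0.087 to 0.38 for Col6a1, -0.17 to 0.23 for Col6a3, -0.12 to 0.39 for Col14a1 and -0.12 to 0.45 for Col16a1. The 6 that kept their sign ran from 0.12 to 0.40 for Col4a1, 0.17 to 0.45 for Col4a3, 0.073 to 0.29 for Col4a4, 0.016 to 0.59 for Col6a2, 0.10 to 0.37 for Col8a1 and -0.37 to -0.13 for Col27a1. The basement membrane median was -0.015 to 0.30, and the fibrillar median -0.071 to 0.49, each lowest without R193H replicate 2. Scaling by library totals moved the median of all genes to 0.13 and Col4a5 to 0.105, below that shift. The cause of these differences between settings was not tested. No paired analysis was possible because the labels give no number or litter shared between wild type and R193H hearts. With 3 hearts a group and collagen counts that differ this much between hearts of a group, a p that missed the threshold does not show that levels were equal.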
